A study of Mus musculus with 564 samples.

Results

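TG100572, Bafetinib and ONO4059analogue are clinical kinase inhibitors (CKIs) whose designated targets are tyrosine kinases: SRC and the VEGF receptor KDR for TG100572, ABL1 and LYN for Bafetinib, and BTK for ONO4059analogue. They were chosen by name, as every library of these 3 compounds, which gave 29 libraries (11 of TG100572, 9 of Bafetinib and 9 of ONO4059analogue) in a series that also holds 517 libraries of 55 other CKIs and 18 of DMSO. The cells were bone marrow-derived macrophages (BMDMs) from wild type male C57/BL6 mice aged 6 to 8 weeks, a primary macrophage culture. They received DMSO or 1 of 58 CKIs for 1 h and were then left unstimulated (UT) or stimulated with 10 ng/mL of lipopolysaccharide (LPS), the bacterial ligand of TLR4, or of interleukin 4 (IL-4), for 0.5, 1, 2 or 4 h. UT samples, with time 0 in their titles and 4 h in their treatment labels, were used with either stimulus. H3K27ac, the acetylation of histone H3 found at promoters and enhancers in use, was measured by ChIP-seq and given as normalised read counts over 59190 cis-regulatory elements (CREs).

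SRC family kinases such as LYN phosphorylate immune receptors and integrins in macrophages, BTK acts below them together with SYK and PLCG2, and ABL kinases link receptors to the actin cytoskeleton. LPS acts through TLR4 on NF-kB and MAP kinases within minutes, and on interferon-stimulated genes later, through secreted interferon beta, the receptor kinases TYK2 and JAK1, and the factor ISGF3. IL-4 acts through JAK1 and JAK3 on STAT6 and its genes, such as Arg1.

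Each CKI was used at a concentration that the study set from its binding to an intended target, which for TG100572 was TYK2, for Bafetinib MAPKAPK3 and for ONO4059analogue BTK. The doses therefore differ, and values of the 3 compounds are set side by side with no test between them. DMSO had 2 libraries in each of its 9 groups, 18 in all. Of the 27 groups of the 3 compounds, 25 held 1 library and 2 held 2 (TG100572 UT and TG100572 with IL-4 at 2 h, through libraries whose titles end in b). Nothing in the labels says whether replicates came from separate cultures, so the spread between them may be technical. In the fit of compound and time, the p-values measure the scatter of libraries around these terms over all compounds of the series. The times of a compound there stand as its repeats. In the fit of group means, the p-values measure the spread within groups of more than 1 library. Neither spread holds an offset shared by all libraries of a compound.

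The libraries differed in quality between the groups compared. Reads in CREs, estimated from the smallest step between values, ranged from 2346043 to 5408907 in the DMSO libraries, from 2353341 to 4479707 for TG100572, from 807659 to 2587169 for Bafetinib and from 4094845 to 5684322 for ONO4059analogue. The contrast, which is the median of the 10% of CREs with the highest mean level divided by the median of the lowest 10%, was 53.0 to 134 in DMSO and lower in all 29 libraries of the 3 compounds: 30.8 to 44.1 for ONO4059analogue, the highest median of the 58 CKIs, 17.2 to 39.1 for TG100572 and 5.63 to 19.5 for Bafetinib. Bafetinib split by stimulus, since its 5 UT and LPS libraries had a contrast of 5.63 to 11.4 and at most 1472722 reads, and its 4 IL-4 libraries a contrast of 16.8 to 19.5 and at least 2034292 reads. The TG100572 library at 2 h of LPS stood apart from the other 10 of that compound: it had 626 CREs at 0 against 60 to 268, and the steepest gain of signal with GC content of any library of the series, 0.86 on the log2 scale per 10 percentage points of GC, against 0.081 to 0.48. Libraries of the 55 other CKIs reached 0.841 in this slope and 12451 CREs at 0. Promoter CREs of 5 of 8 macrophage marker genes summed to 2150 to 4844 in DMSO, TG100572 and ONO4059analogue libraries and to 1364 to 3191 in Bafetinib libraries. The promoter CREs of 3 of 6 B cell markers, with summed medians of 52 in DMSO, 78 for TG100572, 87 for ONO4059analogue and 154 for Bafetinib, were highest under Bafetinib, whose contrast was lowest. The medians of T cell, NK cell, granulocyte precursor and fibroblast markers were also highest there. The endothelial marker went the other way, with a median of 236 in DMSO and 181 under Bafetinib. The part of contrast, reads and GC content in the results was not tested, and counts are given with the same fit after quantile normalisation, which gives all libraries of a fit 1 distribution of values.

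**Figure D1:**
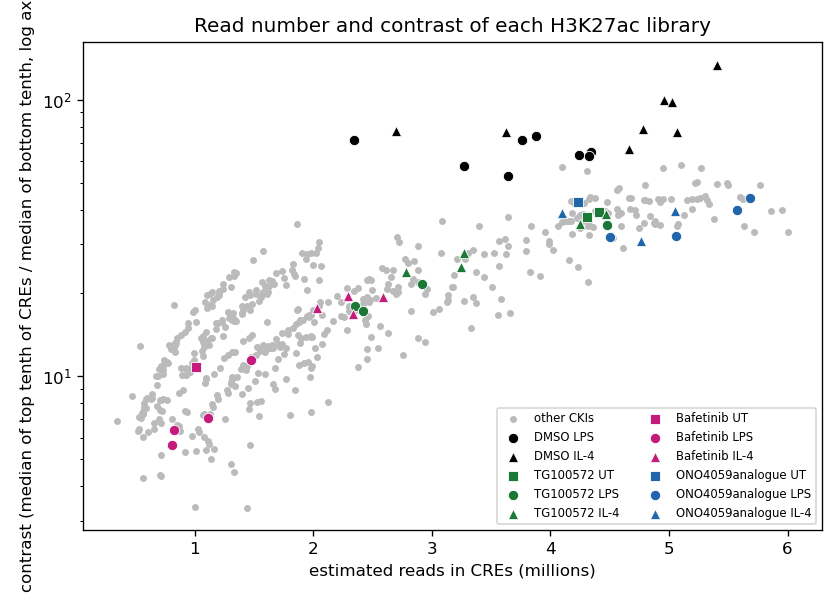
Each point is 1 library with an estimate of its reads (the UT libraries of DMSO and 1 of ONO4059analogue had none), with the estimated reads in CREs on the horizontal axis and the contrast on the vertical log axis. All DMSO points lie at a contrast of 53.0 or more, above every library of the 3 compounds, and the Bafetinib UT and LPS libraries lie at the lower left.

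Against DMSO, H3K27ac differed least under ONO4059analogue and most under Bafetinib. Calls needed both an adjusted p below 0.05 and a log2 difference beyond 0.5 in size, in a limma fit of compound and time over all libraries of a stimulus with UT. After LPS, 494 CREs were higher and 71 lower under ONO4059analogue, 13144 higher and 3082 lower under TG100572, and 32175 higher and 3717 lower under Bafetinib, of 59163 tested. After IL-4, the counts were 3704 and 516 for ONO4059analogue, 15032 and 2816 for TG100572, and 29497 and 1041 for Bafetinib, of 59147 tested. By number of calls after LPS, Bafetinib ranked 1, TG100572 42 and ONO4059analogue 51 among the 52 CKIs with a library in all 5 groups of UT and LPS. After IL-4 they ranked 17, 37 and 52 among the 53 with all 5 groups. Among all 58 CKIs the ranks were 1, 45 and 57 after LPS and 21, 42 and 57 after IL-4.

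The excess of higher over lower calls depended on the scaling. The median difference over all CREs after LPS was 0.28 for TG100572, 0.73 for Bafetinib and 0.19 for ONO4059analogue. After quantile normalisation, the higher and lower calls after LPS were 721 and 2268 for TG100572, 2575 and 3467 for Bafetinib, and 16 and 9 for ONO4059analogue. After IL-4, they were 1104 and 2520, 848 and 954, and 102 and 63. With values centred within bins of GC content and level, a setting chosen after seeing the data, the LPS calls were 398 and 271 for TG100572, 2476 and 3173 for Bafetinib and 147 and 21 for ONO4059analogue.

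**Figure D2:**
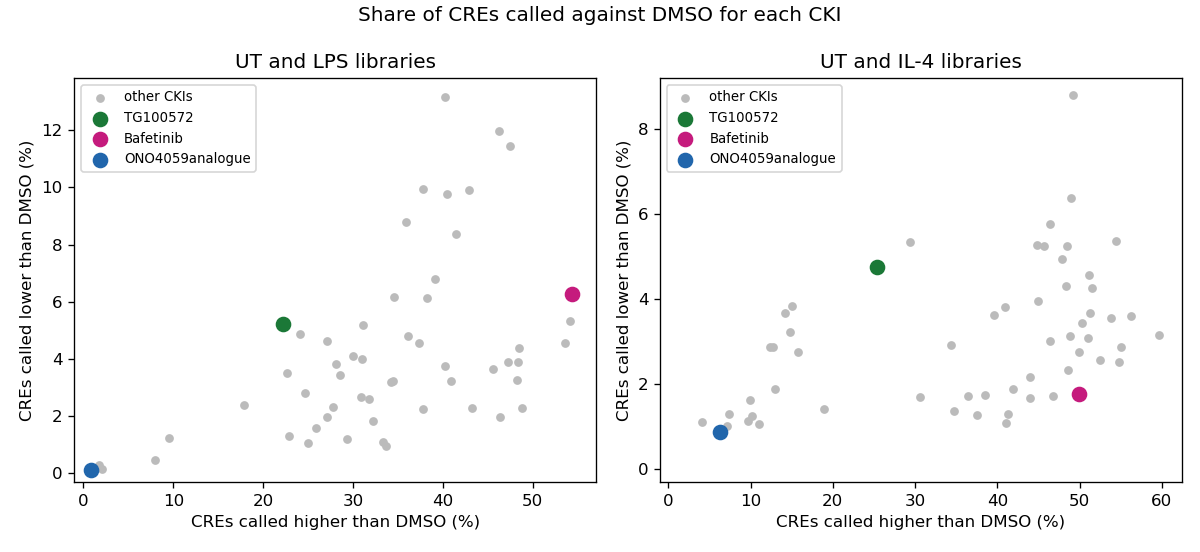
Each point is 1 CKI, with the percent of tested CREs called higher than DMSO on the horizontal axis and the percent called lower on the vertical axis, for UT and LPS libraries (left) and UT and IL-4 libraries (right). Bafetinib lies at 54.4% and 6.28% after LPS, TG100572 at 22.2% and 5.21%, and ONO4059analogue at 0.835% and 0.12%.

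The size of the difference from DMSO varied with the mean value of a CRE. In quartiles set by the mean over the 55 other CKIs, the median difference under Bafetinib after LPS was 1.73 in the quartile of lowest level, where 92.4% were called higher, and -0.21 in the highest, where 7.41% were called higher and 21.9% lower. For TG100572 the medians ran from 0.80 to 0.02, and for ONO4059analogue from 0.45 to 0.07. In the highest quartile, 9.25% of CREs were called lower under TG100572 and 0.325% under ONO4059analogue.

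**Figure D3:**
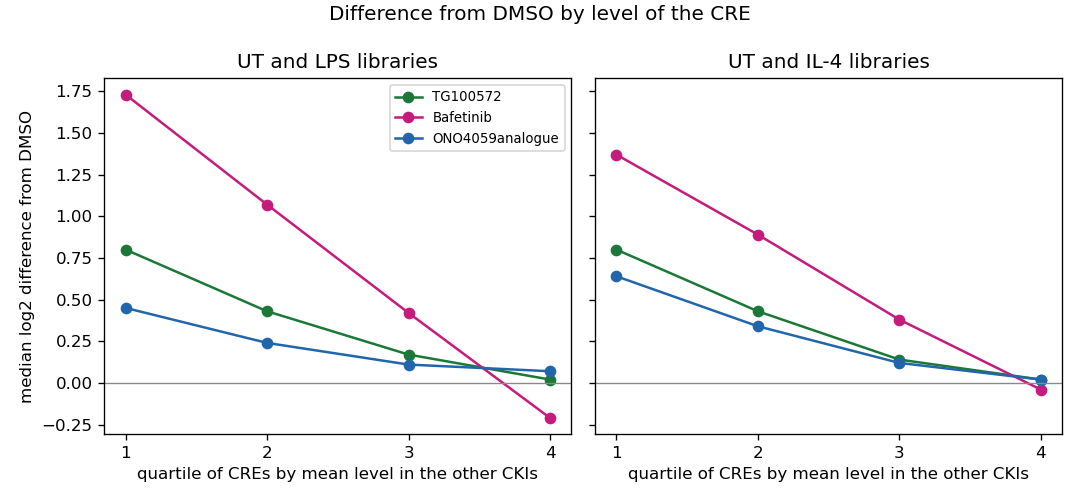
The horizontal axis is the quartile of CREs by mean level in the 55 other CKIs and the vertical axis the median log2 difference of a compound from DMSO. The lines of all 3 compounds go down from the first to the last quartile, from 1.73 to -0.21 for Bafetinib after LPS.

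The promoter CREs of the designated targets differed from DMSO at Src under TG100572 and at Lyn under Bafetinib, while Abl1 under Bafetinib and Btk under ONO4059analogue gave no call. The split between Lyn and Abl1 turned round under other scalings, as given below. At the promoter CRE of Src (chr2:157456501-157459499, mm10), the UT values were 37 and 45 in DMSO and 115 and 102 under TG100572. Along the LPS time course (0.5, 1, 2, 4 h) the DMSO values were 170 and 207, 182 and 240, 97 and 144, and 81 and 84, and the TG100572 values 255, 305, 270 and 164. All 11 TG100572 values, with 94 to 143 after IL-4, lay above the DMSO mean of their time. Src rose by 0.82 on the log2 scale after LPS (SE 0.18, adjusted p = 0.000369) and by 0.86 after IL-4 (SE 0.18, adjusted p = 6.83e-05). It was also 0.61 higher after IL-4 under ONO4059analogue (adjusted p = 0.0342) and 0.71 higher under Bafetinib (adjusted p = 0.00123), and against the CKIs whose columns stand in the same run of the table, TG100572 gave no call at Src (0.23 after LPS, adjusted p = 1.0). The promoter CRE of Btk, the target of ONO4059analogue, gave no call under that compound (-0.12 after LPS, SE 0.18, adjusted p = 0.785).

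Under Bafetinib, Lyn fell by 0.63 after LPS (SE 0.15, adjusted p = 8.15e-05). Its values along the LPS time course were 384, 461, 456 and 651, all below both DMSO values of the same time, of which the lowest was 574. After quantile normalisation the difference was -0.08 (adjusted p = 0.675). Abl2 fell by 0.70 (SE 0.21, adjusted p = 0.00257), with LPS values of 74, 92, 152 and 100 against 130 to 232 in DMSO, and by 0.91 with quantile values (adjusted p = 0.00108). Abl1 differed by -0.50 (SE 0.18, adjusted p = 0.013), not past the size set for a call. With quantile values Abl1 was called, at -0.77 (adjusted p = 0.00865 by limma). Within bins of GC content and level it was called as well, at -0.59 (adjusted p = 0.0103), where Lyn was not (-0.22, adjusted p = 0.151).

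Of 10 SRC family kinases and regulators with a promoter CRE, TG100572 after LPS had 2 higher (Src and the kinase Yes1, by 1.54) and 1 lower (the phosphatase Ptprc, CD45, which activates SRC kinases, by 1.56), beside 22.2% of all CREs called higher and 5.21% lower. The median of the 10 was 0.20 and that of all CREs 0.28. Bafetinib had 1 higher and 2 lower after LPS, beside 54.4% and 6.28% of all CREs and 21.9% lower in the quartile of CREs of highest level. ONO4059analogue had none in either direction beside 0.835% and 0.12%. Yes1 was higher and Ptprc lower after IL-4 under all 3 compounds, which share their DMSO libraries.

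Of 11 promoter CREs of ABL and BTK/TEC kinases and their partners, 6 fell under Bafetinib after LPS and none rose, with a median of -0.55, beside 6.28% of all CREs lower and 54.4% higher. In the quartile of CREs of highest level, 21.9% were lower. Promoters of housekeeping genes, given below, fell as well, so that the falls are not particular to this list. Syk, the kinase recruited to phosphorylated ITAM receptors, fell by 1.10 (SE 0.17, adjusted p = 1.64e-08), Btk by 0.70, Pik3ap1 by 0.66 and the exchange factor Vav1 by 0.57, and Syk was also lower than in the other CKIs, by 0.53 (adjusted p = 0.013). After quantile normalisation 4 of the 11 were lower. After IL-4, when the Bafetinib libraries had more reads and a higher contrast, 1 of the 11 was lower (Btk, by 0.60, adjusted p = 0.000124), beside 1.76% of all CREs. TG100572 gave 1 lower after LPS (Syk, by 0.52) and ONO4059analogue none.

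Fc receptor, ITAM and integrin genes showed the same kind of count, with 9 of 17 lower and 1 higher under Bafetinib after LPS and a median of -0.51, beside 6.28% of all CREs lower and 54.4% higher, and 21.9% lower in the quartile of CREs of highest level. They included Itgb1 (-0.94), the activating Fc receptor Fcgr3 (-0.93), the adaptors Lcp2 (-0.85) and Tyrobp (-0.73). After quantile normalisation 2 were lower. Promoters used as housekeeping controls were lower as well, 5 of 11 (Actb at -0.55, Pgk1 at -0.82, Hprt at -1.02, B2m and Ywhaz), as were 7 of 17 macrophage lineage genes, among them Spi1, which encodes PU.1 (-0.85), and Csf3r (-0.93). After quantile normalisation, 1 of the 17 lineage genes and 2 of the 11 housekeeping genes were lower. These counts, too, stand beside 6.28% of all CREs lower and 54.4% higher. At the promoters of 9 intended targets and close kin, Bafetinib after LPS had 5 lower (Jak2 by 0.80, Jak3 by 0.77, Tyk2 by 0.73, Jak1 by 0.59 and Mapk14 by 0.51) and 2 higher (Mapkapk2 by 0.92, Flt1 by 0.85). Both counts stand beside the same shares of all CREs, and 21.9% lower in the quartile of highest level. Mapkapk3 was not tested, since no CRE was assigned to its promoter.

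Some interferon-stimulated genes fell after LPS under TG100572 and Bafetinib, and none was called lower under ONO4059analogue. Of 22 such promoter CREs, TG100572 had 6 lower and none higher, with a median of -0.39, beside 5.21% of all CREs lower, 22.2% higher and a median of 0.28. Bafetinib had 13 lower and none higher, with a median of -0.56, beside 6.28% lower, 54.4% higher and a median of 0.73. In the quartile of CREs of highest level, 21.9% were lower under Bafetinib, with a median of -0.21. Under TG100572 that quartile had 9.25% lower and a median of 0.02. Housekeeping and lineage promoters also fell under Bafetinib, as given above. Gbp2, a guanylate-binding protein, fell by 0.90 under TG100572 (SE 0.19, adjusted p = 0.000193) and Usp18, which removes ISG15 from proteins, by 0.89 (SE 0.20, adjusted p = 0.000436). Under Bafetinib, Ifih1, the RNA sensor MDA5, fell by 1.21 (SE 0.18, adjusted p = 3.19e-09), Oas2 by 0.83 and Isg15 by 0.82. With quantile values 2 were lower under TG100572 and 4 under Bafetinib, and with values centred within bins of GC content and level 0 and 3. Without the 2 h library of TG100572, 7 of the 22 were lower. Under ONO4059analogue, 1 of the 22 was higher (Cmpk2, a nucleotide kinase next to Rsad2, by 0.81, adjusted p = 0.0243) and none lower, with a median of 0.06.

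Rsad2, which encodes the antiviral enzyme viperin, shows this time course. In DMSO its promoter CRE (chr12:26455740-26457336) was at 95 and 100 in UT, 99 and 105 at 0.5 h, 240 and 204 at 1 h, 290 and 323 at 2 h, and 329 and 311 at 4 h of LPS. Under TG100572 it was at 66 and 82 in UT and at 96, 107, 173 and 233, and under Bafetinib at 87 in UT and 106, 61, 170 and 266. Both compounds lay below the DMSO values at 1, 2 and 4 h and near them at 0.5 h. Under ONO4059analogue the values were 95, 142, 226, 251 and 290, so that the 1 h value lay between both DMSO values and the 2 h and 4 h values below them. Rsad2 fell by 0.56 under TG100572 (SE 0.19, adjusted p = 0.0209) and by 0.59 under Bafetinib (SE 0.20, adjusted p = 0.00753), and the difference under ONO4059analogue was 0.01 (SE 0.20, adjusted p = 0.991). Against the other CKIs neither TG100572 (-0.08) nor Bafetinib (-0.11) differed at Rsad2, with adjusted p of 0.81 and 0.639 by limma. With quantile values the Rsad2 difference was -0.43 under TG100572 (adjusted p = 0.301) and -0.75 under Bafetinib (adjusted p = 0.0303). The change of the LPS response itself was not called at Rsad2, at -0.21 under TG100572 and -0.55 under Bafetinib (adjusted p = 0.673 by limma). After IL-4, Rsad2 differed from DMSO by -0.48 under TG100572 (adjusted p = 0.0189 by limma), not past the size set for a call. Under Bafetinib it differed by -0.26 (adjusted p = 0.225 by limma). At the promoter CRE of Ifnb1, which encodes interferon beta, no compound gave a call after LPS: at 1 h, where DMSO was at 472 and 423, TG100572 was at 351, Bafetinib at 236 and ONO4059analogue at 391.

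The interferon-stimulated response element (ISRE), searched as GAAA, any 2 bases and GAAA on both strands with overlapping matches kept, is the sequence that ISGF3 and IRF factors bind. It was present within 200 bases upstream of the start in 7 of the 18 listed promoters that had a RefSeq entry, and in 2.65% of 27025 genes. The promoters of 3 members that were lower under both TG100572 and Bafetinib are shown from RefSeq (GRCm38.p6, which is mm10), 5′ to 3′ on the strand of the gene, with the ISRE letters in capitals. Rsad2 lies at chr12:26456453-26456652 (minus strand), Ifit1 at chr19:34640689-34640888 (plus) and Isg15 at chr4:156200819-156201018 (minus).
Rsad2: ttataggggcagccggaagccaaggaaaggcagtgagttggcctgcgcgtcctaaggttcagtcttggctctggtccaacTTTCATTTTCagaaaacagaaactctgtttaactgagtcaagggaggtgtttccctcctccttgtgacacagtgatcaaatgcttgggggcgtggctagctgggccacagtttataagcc
Ifit1: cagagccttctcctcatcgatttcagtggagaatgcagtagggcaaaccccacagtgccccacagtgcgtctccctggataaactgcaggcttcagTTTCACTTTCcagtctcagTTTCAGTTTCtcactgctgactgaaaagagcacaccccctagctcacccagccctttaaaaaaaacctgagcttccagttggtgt
Isg15: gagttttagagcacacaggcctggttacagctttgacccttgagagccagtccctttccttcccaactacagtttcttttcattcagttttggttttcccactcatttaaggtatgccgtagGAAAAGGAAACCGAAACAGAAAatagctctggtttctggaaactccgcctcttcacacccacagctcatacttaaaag
Rsad2 holds the letters once, Ifit1 at 2 places, and Isg15 at 3 overlapping places. Ifit1 fell by 0.62 under TG100572 and 0.66 under Bafetinib, and Isg15 by 0.61 and 0.82.

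Against the other CKIs after LPS, ONO4059analogue was higher at 8 of the 22 interferon-stimulated promoters and lower at none, beside 0.728% of all CREs called higher and 8.82% lower. They were Cmpk2 (0.68), Xaf1 (0.66), Ddx58 (0.64), Oas2 (0.62), Usp18 (0.62), Oasl1 (0.51), Socs1 (0.51) and Irf7 (0.50), and the median of the 22 was 0.47 where that of all CREs was -0.25. Cmpk2 along the LPS time course was at 173, 440, 641 and 652 under ONO4059analogue and at 66 to 79, 259 to 271, 378 to 395 and 314 to 355 in DMSO, so that every value lay above both DMSO values of its time. None of the 8 passed with quantile values, with the bins, or against the CKIs of the same run of columns.

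Among NF-kB inflammatory genes, the share called higher after IL-4 lay above that of all CREs under TG100572 and ONO4059analogue and near it under Bafetinib. With 22 members, the counts are too few to set these shares apart. Of all CREs, the share called higher also varied with level. From the quartile of lowest level to the highest, it went from 48.7% to 5.23% under TG100572 and from 8.44% to 3.26% under ONO4059analogue. Under Bafetinib it went from 84.4% to 8.01%. Of 22 promoter CREs, 9 were higher and 1 lower after IL-4 under TG100572 (beside 25.4% and 4.76% of all CREs), 10 and 1 under Bafetinib (49.9% and 1.76%), and 3 and none under ONO4059analogue (6.26% and 0.872%), with medians of 0.39, 0.24 and 0.36 where those of all CREs were 0.27, 0.60 and 0.23. The IL-12 subunit gene Il12b rose by 1.42, 1.52 and 1.15, and Traf1 by 0.91, 1.17 and 1.02. Il6 after IL-4 was at 74 to 105 under TG100572 and at 35 to 87 in DMSO, against 611 to 686 in DMSO at 4 h of LPS. With quantile values 4, 2 and 1 of the 22 were higher, and against the other CKIs none was called in either direction.

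Among 22 promoter CREs of IL-4 and STAT6 genes, TG100572 after IL-4 had 2 higher (the chemokine Ccl22 and Socs2) and 2 lower (Arg1 and Tfec), Bafetinib 2 higher (Ccl22 and Fn1) and 3 lower (Arg1, Tfec and Mgl2), and ONO4059analogue 1 lower (Tfec, a transcription factor of the MITF family). Of all CREs after IL-4, 25.4% were higher and 4.76% lower under TG100572, 49.9% and 1.76% under Bafetinib, and 6.26% and 0.872% under ONO4059analogue. The shares of members called higher thus lay below those of all CREs under TG100572 and Bafetinib. Under ONO4059analogue no member was called higher, and 22 members are too few to set that apart from 6.26%. Arg1, the arginase of alternatively activated macrophages, at chr10:24926716-24929154, was at 692 and 604, 654 and 656, 671 and 747, and 617 for the higher of the 4 h pair in DMSO along the IL-4 time course (0.5, 1, 2, 4 h). TG100572 gave 433, 429, 437 with a second library at 387, and 316, and Bafetinib gave 412, 370, 386 and 401. Every value of both lay below both DMSO values of its time. Arg1 fell by 0.65 under TG100572 (SE 0.14, adjusted p = 0.000151) and by 0.57 under Bafetinib (SE 0.16, adjusted p = 0.00111), and with quantile values by 0.54 (adjusted p = 0.00446) and 0.46 (adjusted p = 0.0683). Under ONO4059analogue it was at 523, 544, 625 and 426, a difference of -0.33 (adjusted p = 0.144). Arg1 did not differ from the other CKIs under TG100572 (-0.08, adjusted p = 0.588). Among 20 immediate early and MAPK feedback genes, 0 to 3 were called in 1 direction in any of these comparisons. Of all CREs against DMSO, the share called in 1 direction ran from 0.12% (ONO4059analogue lower after LPS) to 54.4% (Bafetinib higher after LPS). The range of 0 to 3 is therefore not read as a result about these genes. Fos and Egr1 gave no call after LPS.

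**Figure D4:**
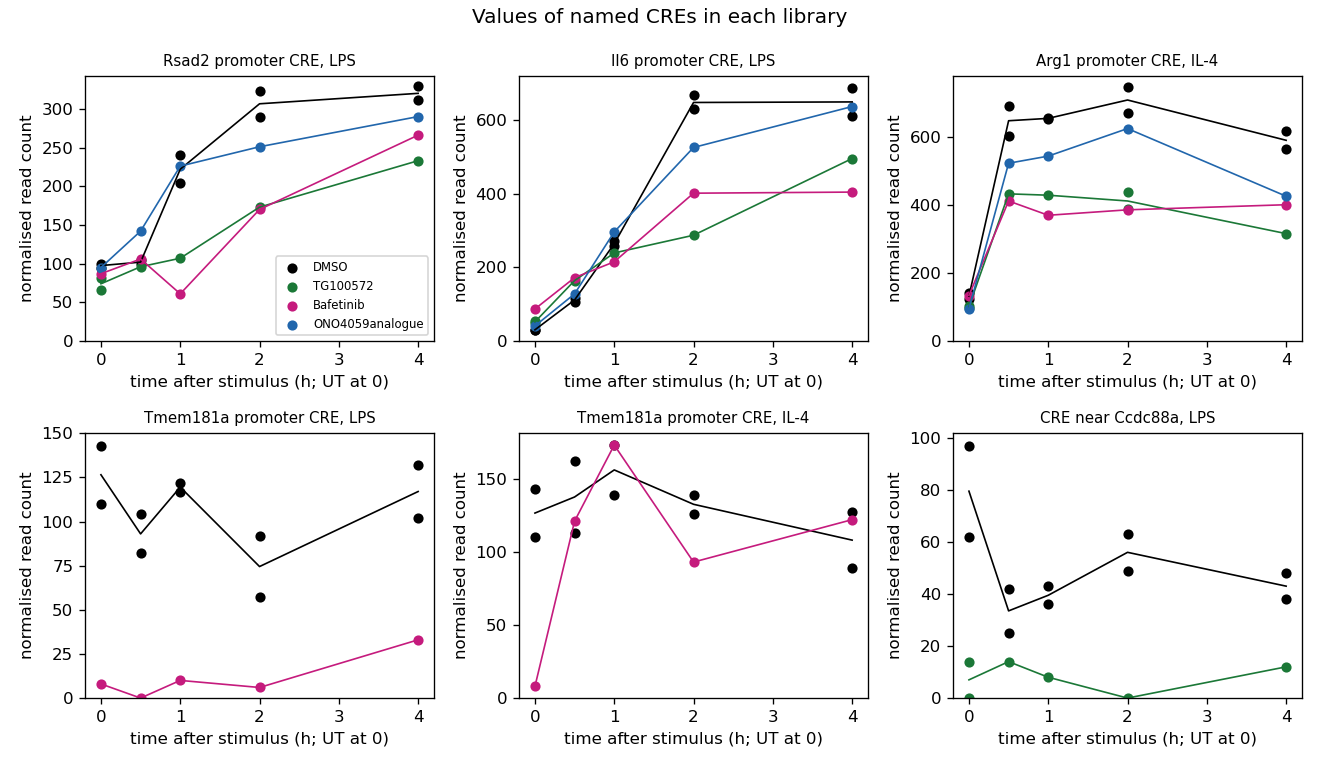
Points are single libraries and lines join the means of each time, with hours after the stimulus on the horizontal axis (UT at 0) and the normalised read count on the vertical axis, for 6 pairs of a CRE and a stimulus. In the upper row, Rsad2, Il6 and Arg1 of TG100572 and Bafetinib lie below DMSO at 2 and 4 h, and in the lower row the promoter CRE of Tmem181a is at 0 to 33 under Bafetinib in LPS and UT libraries and at 93 to 173 in IL-4 libraries, and the CRE in Ccdc88a is at 0 to 14 under TG100572.

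The CREs that separated TG100572 from DMSO were ordered by base composition. Among CREs called against both DMSO and the other CKIs after LPS, with all libraries on 1 side of DMSO and a mean of at least 50, 43 were higher and 359 lower. Without the 2 h libraries of TG100572 no CRE was called against the other CKIs after LPS, and without its UT libraries 20 were, so that these sets rest on those libraries. Of the 43, 88.4% were promoters, against 19.3% of all CREs, and their median GC content was 60.1%, where that of the 359 was 38.1% and that of all tested CREs 46.4%. The same rule after IL-4 gave 25 higher CREs at 61.0% and 247 lower ones at 38.1%. The GC slope of the 11 TG100572 libraries was 0.081 to 0.86 and that of the DMSO libraries -0.122 to 0.164. Of the 359 lower CREs, 349 were also called against DMSO with quantile values, 70 with values centred within bins of GC content and level, and 0 against the CKIs of the same run of columns. Of the 43 higher ones, these counts were 17, 7 and 0.

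Both ends are shown by 200 bases of mm10 with CG dinucleotides in capitals. The promoter of Ahdc1, a gene for a DNA-binding protein, is printed upstream of its start at chr4:133011306-133011505 (plus strand), and the centre of the intergenic CRE near Bmt2 at chr6:13691136-13691335 (plus strand).
Ahdc1: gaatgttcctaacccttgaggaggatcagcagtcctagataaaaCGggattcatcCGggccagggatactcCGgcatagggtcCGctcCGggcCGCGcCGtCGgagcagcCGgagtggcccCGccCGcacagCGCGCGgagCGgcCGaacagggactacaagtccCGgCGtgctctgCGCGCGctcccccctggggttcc
CRE near Bmt2: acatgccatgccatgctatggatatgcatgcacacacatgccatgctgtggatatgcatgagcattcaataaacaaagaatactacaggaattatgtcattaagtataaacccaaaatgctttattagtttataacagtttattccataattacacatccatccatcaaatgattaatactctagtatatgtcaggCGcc
The first has 22 CG dinucleotides and 68.0% GC, and the second 1 and 35.0%. The Ahdc1 CRE (chr4:133010651-133012382) was at 81 to 100 in UT and 39 to 85 after LPS in DMSO, and at 143 and 183 in UT and 130 to 195 after LPS under TG100572, with no overlap. It rose by 1.14 after LPS (SE 0.20, adjusted p = 3.75e-06) and by 1.11 without the 2 h libraries. The CRE near Bmt2 (chr6:13689796-13692674) was at 306 to 720 after LPS in DMSO and at 116, 122, 10 and 240 under TG100572, where 10 is the 2 h library. It fell by 2.36 (SE 0.33, adjusted p = 9.92e-09), and by 1.86 without the 2 h libraries.

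Other named CREs of TG100572 fell alike. A CRE over an exon of Ccdc88a, which encodes the actin-binding protein girdin (chr11:29428209-29429780, 31.2% GC), was at 25 to 97 in the UT and LPS libraries of DMSO and at 0 to 14 in those of TG100572. It fell by 2.27 after LPS (SE 0.40, adjusted p = 6.16e-06) and differed by -2.10 after IL-4 (SE 0.36, adjusted p = 1.24e-06). CREs in Itgb8 and St8sia4 and near Tex13c3 differed by -2.31 to -2.30 after LPS, all at 33.2% to 37.5% GC. Promoter CREs of Tgif2, Mapre3 and Wipf2 rose by 1.06 to 1.15, of which Wipf2 held with quantile values.

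Another CRE rose under TG100572 after both stimuli. It lies in the immunoglobulin heavy chain region, 64741 bases from the start of the nearest protein-coding gene, Adam6b (chr12:113423697-113425843), and overlaps annotated miRNA genes. In DMSO it was at 279 and 295 in UT, 36 to 72 after LPS and 155 to 248 after IL-4, and under TG100572 at 652 and 756, 167 to 307 and 420 to 995. The groups did not overlap within UT, LPS or IL-4, and the fall under LPS was seen in both. It rose by 1.73 (SE 0.21, adjusted p = 1.3e-11) and 1.59 (SE 0.13, adjusted p = 1.13e-23), also against the other CKIs (0.63 and 0.69), but by 0.02 and 0.10 against the CKIs of the same run of columns (adjusted p = 1.0 for both). After IL-4, 3 CREs near Pdia4 (between chr6:47739012 and chr6:47768355) rose by 1.96 to 4.40, and against the same run they differed by 0.14 to 0.49. The rises of 4.40 (SE 0.90) and 4.00 (SE 0.82) started from DMSO means of 14.8 and 8.0, near the floor, so their size is uncertain. The rise of 1.96 (SE 0.57) started from a DMSO mean of 492.

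Bafetinib had 1 promoter that was nearly empty in 1 set of its libraries. The promoter CRE of Tmem181a, a gene for a transmembrane protein (chr17:6269611-6271237), was at 57 to 143 in the UT and LPS libraries of DMSO. Under Bafetinib it was at 8 in UT and at 0, 10, 6 and 33 along the LPS time course, but at 121, 173, 93 and 122 after IL-4, where DMSO was at 89 to 173. The UT and LPS values lay below every DMSO value and the IL-4 values within their range. It fell by 3.03 after LPS (SE 0.34, adjusted p = 8.78e-14), with -2.81 against the other CKIs (adjusted p = 7.28e-16), -2.82 against the same run of columns (adjusted p = 1.09e-14) and -3.39 with quantile values (adjusted p = 3.82e-14). A CRE near Olfr630 (chr7:103761635-103763332) was at 0 to 62 in the UT and LPS libraries of Bafetinib and 64 to 174 in those of DMSO. It fell by 3.07 (SE 0.49, adjusted p = 4.19e-08), with -2.54 against the same run (adjusted p = 6.25e-05). In the IL-4 libraries it was at 86 to 127 against 112 to 203 in DMSO, and at 4 h it lay between both DMSO values. The limma fit of IL-4 together with UT gave -1.51 (adjusted p = 0.00101). That fit holds the UT library, at 0 against 174 and 173 in DMSO, so the estimate does not describe the IL-4 libraries alone. The others named by the rule, Gm3417, Gm13283 and Tagap1, fell by 2.27, 1.82 and 1.59. Tmem181a has annotated pseudogene copies, and Gm3417, Gm13283 and Tagap1 have related genes, so that reads can be split between copies and these values are uncertain. Of the 260 CREs lower under Bafetinib by this rule, 80.0% were promoters, and 226 were also called against DMSO with quantile values, 183 within bins and 55 against the same run. The same rule gave 4711 higher CREs, of which these counts were 1252, 672 and 22.

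The 5 rises of Bafetinib named by the rule after LPS were at repeated sequence. The CRE near H60c (chr10:3110992-3117821), of which 87.2% is soft-masked as repeat in the reference, was at 5 to 74 in the UT and LPS libraries of DMSO and at 2123 to 5940 under Bafetinib. After IL-4 it was at 836 to 1743 under Bafetinib. CREs near Tcp10c (72.3% repeat), in Smo (82.9%), near Zfy1 (85.5%) and near Olfr161 (59.4%) rose by 5.08 to 6.59. The part of reads with several matches in these values was not tested. Against the same run of columns none of the 5 was called, at 0.51 to 1.14. No CRE met the rule for Bafetinib after IL-4, where 2 CREs differed from the other CKIs.

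ONO4059analogue gave small and few differences. By the same rule, 38 CREs were higher and 5 lower after LPS, and 5 and 6 after IL-4. With quantile values, 3 of the 38, 1 of the 5, 1 of the 5 and 0 of the 6 were called against DMSO, and none was called against the same run of columns. An intronic CRE of Map6, a microtubule-binding protein (chr7:99303563-99305922), was at 259, 139, 106 and 161 after LPS against 17 to 91 in DMSO, and rose by 1.67 (SE 0.23, adjusted p = 4.57e-08). An intronic CRE of Ciita, the activator of MHC class II genes (chr16:10497479-10499202), was at 535, 395, 180 and 77 against 178 and 201, 148 and 176, 81 and 101, and 57 and 51, higher at each time. It rose by 1.13 (SE 0.24, adjusted p = 0.00283), and by 0.80 with quantile values (adjusted p = 0.19). After IL-4, a CRE 30465 bases from the start of Socs1, a feedback inhibitor of JAK kinases (chr16:10753797-10756345), was at 716, 345, 385 and 504 against 271 to 339 in DMSO. It rose by 0.80 (SE 0.17, adjusted p = 0.00106), also with quantile values (0.73, adjusted p = 0.0255), and differed by 0.18 from the same run. Falls included a CRE near Spp1, the osteopontin gene (-0.85 after LPS, adjusted p = 0.0496), and an intron of Fkbp5 (-0.64 after IL-4, adjusted p = 0.0142). Neither was called with quantile values (adjusted p = 0.248 for Spp1 and 0.185 for Fkbp5) or against the same run (0.741 and 1.0 by limma), nor was Spp1 without the 2 h library (0.134).

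By calls against the other CKIs, TG100572 and ONO4059analogue lay on the lower side after both stimuli. Bafetinib lay on the higher side after LPS and had 2 calls after IL-4. Of all CREs tested after LPS, TG100572 was higher at 152 (0.257%) and lower at 1434 (2.42%), Bafetinib higher at 5606 (9.48%) and lower at 384 (0.649%), and ONO4059analogue higher at 431 and lower at 5220. For IL-4 the counts were 31 (0.0524%) and 2392 (4.04%) for TG100572, 0 (0%) and 2 (0.00338%) for Bafetinib, and 17 (0.0287%) and 441 (0.746%) for ONO4059analogue. Against only the CKIs of the same run of columns, Bafetinib had 32 higher and 91 lower calls for LPS and a single lower one for IL-4, and TG100572 and ONO4059analogue had none. Without its 2 h library, TG100572 had none against the other CKIs after LPS, and without its UT libraries 20.

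At single times of LPS, TG100572 differed from DMSO at 5354 CREs (9.05%) at 2 h, where its library stood apart, and at 7 (0.0118%), 18 (0.0304%) and 7 at 0.5, 1 and 4 h. At 2 h, the 2084 higher CREs had a median GC content of 51.6% and the 3270 lower ones 39.9%. Bafetinib differed at 13033 (22.0%), 18011 (30.4%), 11632 (19.7%) and 978 (1.65%) at these times in order. In UT cells, 26 CREs (0.0439%) were called under TG100572, 12299 (20.8%) under Bafetinib and 3 (0.00507%) under ONO4059analogue. The difference from DMSO itself differed between LPS and IL-4 at 8 CREs (0.0135%) for TG100572 and at 3725 (6.3%) for Bafetinib.

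Responses to both stimuli were compared as the mean of the 4 stimulated times minus UT. In CRE classes set in the 55 other CKIs, the median LPS response of the 3044 early induced CREs (largest rise at 0.5 or 1 h) was 1.65 in DMSO, 1.33 under TG100572, 0.58 under Bafetinib and 1.38 under ONO4059analogue. For the 5962 late induced CREs it was 1.73, 1.28, 0.71 and 1.49, and for the 7979 lost CREs -1.35, -1.02, -0.97 and -1.13. The 3130 IL-4-induced CREs had medians of 1.77, 1.42, 0.77 and 1.62. In these 4 classes the size of the response fell from DMSO over ONO4059analogue and TG100572 to Bafetinib, which is also the order of the median contrast, while in the 2084 IL-4-lost CREs it was -0.94 in DMSO, -0.99 under ONO4059analogue, -0.87 under TG100572 and -0.76 under Bafetinib.

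**Figure D5:**
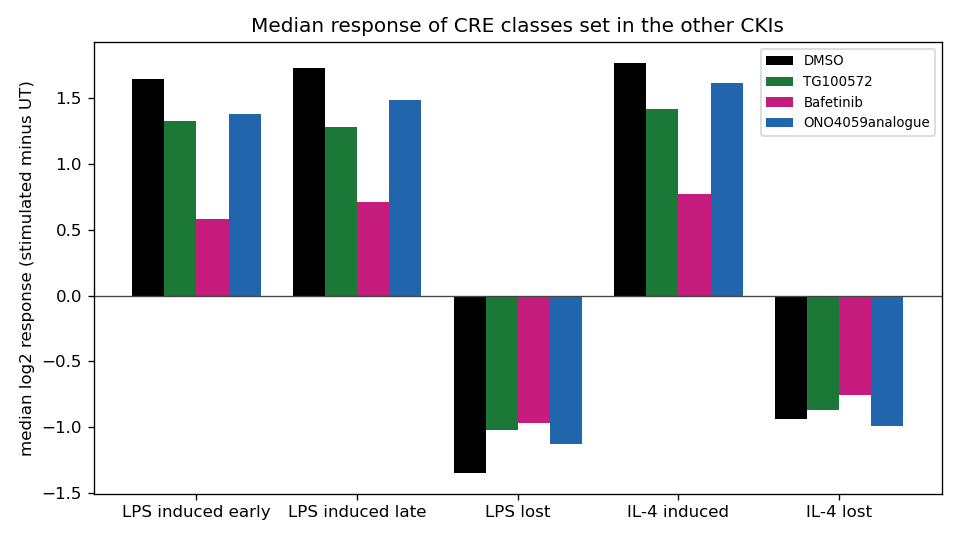
Bars give the median log2 response of a CRE class, stimulated minus UT, in DMSO and under each compound, for 5 classes set in the 55 other CKIs. The bars of Bafetinib are the shortest in every class, at 0.58 against 1.65 in DMSO for the early LPS-induced CREs.

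The test of the response itself against that of DMSO called none of 59166 CREs for TG100572 and ONO4059analogue after either stimulus by limma. At an unadjusted p under 0.05 there were 1427 after LPS and 369 after IL-4 for TG100572, and 684 and 464 for ONO4059analogue. With quantile values, TG100572 had 2 and 1 calls and ONO4059analogue 1 and 1. For Bafetinib, the signed LPS response (stimulated minus UT) was lower at 667 CREs and higher at 190 (0.321%). For IL-4 it was lower at 29 (0.049%) and higher at 20 (0.0338%). At a CRE that falls with the stimulus, a higher signed response is a weaker fall. Of the 7979 LPS-lost CREs, 88 were called higher and 1 lower. In the class medians the response under Bafetinib was lower by 1.11 at early and 1.05 at late LPS-induced CREs. With quantile values it was lower by 0.35 and 0.30, so that the size of the change depended on the scaling. Without DMSO replicate 1 or 2, the LPS calls were 32 and 8.

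Of 22 NF-kB promoters, 7 had a lower signed LPS response under Bafetinib and none a higher one, beside 1.13% of all CREs lower. Most CREs do not respond to LPS, and of the induced ones, 226 of 3044 early and 366 of 5962 late CREs were called as responding less. Il1a fell by 2.69 (SE 0.50, adjusted p = 0.00185), Traf1 by 2.48, Tnfaip3, the feedback inhibitor A20, by 1.36 and Il6 by 1.63 (SE 0.44, adjusted p = 0.0374). For Il6 (chr5:30012104-30015562), Bafetinib was at 87 in UT and 172, 215, 401 and 404 after LPS, and DMSO at 30 and 31, 106 to 117, 257 to 271, 628 to 666 and 611 to 686. The UT and 0.5 h values lay above DMSO and the 1, 2 and 4 h values below it. With quantile values none of the 22 was called, and within bins 6. The signed response was lower by 1.57 at Ifih1 (adjusted p = 0.0241 by limma), by 1.45 at Jak2 and by 1.67 at Jak1. At Mgl2, a lectin of alternatively activated macrophages, it was higher by 2.80 (SE 0.56, adjusted p = 0.00269 by limma). The most reduced CRE, 75176 bases from the start of Jak2 (chr19:29175791-29177514), was at 1 and 2 in UT and 145 to 584 after LPS in DMSO, and at 71 and 131 to 309 under Bafetinib, a change of -4.43 (SE 0.86, adjusted p = 0.00224) in which both the higher UT value and the lower LPS values take part. For IL-4, the exon CRE of Il31ra (chr13:112550945-112552967) was at 4 and 6 in UT and 89 to 334 after IL-4 in DMSO, and at 87 and 46 to 161 under Bafetinib (-3.97, SE 0.77, adjusted p = 0.0114).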

How the data were processed

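H3K27ac ChIP-seq was made in mouse BMDMs. Per the study's methods, the authors trimmed and aligned reads with ShortStack, which places reads of several matches, to mm10 (the labels name Bowtie and SAMtools), counted them in windows around ATAC-seq summits and scaled libraries by a factor from invariant peaks. The deposited values are normalised read counts rounded to whole numbers, given the unit score here, and no count model was used. CREs with a mean of at least 10 were fitted as log2(value + 5) with limma 3.58.1 in R 4.3.3, with compound and time as terms over UT and 1 stimulus, or with a mean for each group for single times and responses. Fold changes on this scale understate low CREs. Calls needed a Benjamini-Hochberg adjusted p under 0.05 over all CREs and an absolute log2 difference over 0.5. The UT libraries stand in both stimulus fits, and all compounds share the DMSO libraries. In the fit of group means, groups of 1 library take their spread from the groups with more. Promoter CREs lie within 1 kb of a start. Other tables were made with Python 3.11.15, pandas 2.3.3 and numpy 2.4.6.

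The named CREs are up to 5 per direction and stimulus with the largest difference from DMSO, among those called against both DMSO and the other CKIs, with all libraries on 1 side and a mean of at least 50; for responses, up to 3. The members and lists were chosen with earlier results of these data known. Alternatives were another pseudocount, quantile normalisation, group means, leaving out times or DMSO replicates, the b libraries, comparison within a run of neighbouring columns of the table and, chosen after seeing the data, centring in 20 bins each of GC content and level. The smallest step between values gave reads for 545 libraries, and the depth of the others is unknown. Simulated data for LPS held 10000 CREs. A log2 difference of 1 from DMSO was recovered for 49.0% of changed CREs under TG100572, 43.0% under Bafetinib and 48.0% under ONO4059analogue. For these shares the spread came from a fit of time alone, so it also holds differences between compounds. The fit of compound and time takes those differences out, so these shares do not measure recovery in that fit. A response change of that size was recovered for 6.0%, 0.0% and 2.5%.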

Additional observations from a re-analysis of the deposited data

Results flagged for a closer look

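The difference from DMSO was set against itself between the LPS and IL-4 time courses. Under Bafetinib it differed at 3725 CREs by limma, 1616 larger after LPS and 2109 smaller. With quantile values 126 were called, and without DMSO replicate 1 or 2 the counts were 498 to 508. The 4 LPS libraries had a contrast of at most 11.4 and the 4 IL-4 libraries of 16.8 to 19.5, so that the stimulus and the library quality cannot be told apart. Under TG100572 it differed at 8 CREs, 4 in each direction, at 1 with quantile values, at 102 within bins of GC content and level, and at 0 without either DMSO replicate. Under ONO4059analogue it differed at 0 by limma, with 1211 at an unadjusted p under 0.05 and 1 call with quantile values.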

How the results depend on the processing

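Counts are of calls after LPS and then IL-4. With quantile values, the counts against DMSO were 2989 and 3624 for TG100572, 6042 and 1802 for Bafetinib, and 25 and 165 for ONO4059analogue. Against the other CKIs they were 85 and 61 for TG100572, 1966 after LPS for Bafetinib, and 24 and 4 for ONO4059analogue. Response changes then numbered 2 and 1, 51 and 12, and 1 and 1 for the 3 compounds in that order, and stimulus differences 1, 126 and 1. With bins of GC content and level, chosen after seeing the data, the counts against DMSO were 669 and 1717, 5649 and 3100, and 168 and 789. Against the other CKIs the bins gave 3 and 2, 419 and 9, and 50 and 11, with 2250 and 389 response changes for Bafetinib and 102 stimulus differences for TG100572. Against the same run of columns, the counts were 0 and 0, 123 and 1, and 0 and 0. With a pseudocount of 1, Bafetinib had 2116 and 4 calls against the other CKIs and 188 changes of the IL-4 response, and ONO4059analogue 1456 and 8404 against DMSO and 688 after IL-4 against the other CKIs. The fit of group means gave 1373 for ONO4059analogue against DMSO after LPS. Without the b libraries, TG100572 had 10641 calls against DMSO after IL-4, and 121 and 61 against the other CKIs. The response taken from 4 h alone gave 16 and 1 for Bafetinib.

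Leaving out 1 time or DMSO replicate, counts against DMSO ranged from 8625 to 16045 and 10439 to 17749 for TG100572, 31942 to 35577 and 26195 to 30028 for Bafetinib, and 63 to 323 and 786 to 2994 for ONO4059analogue. Against the other CKIs they ranged from 0 to 2538 and 24 to 1860, 704 to 6934 and 0 to 10, and 289 to 3604 and 21 to 85. Response changes ranged from 8 to 32 and 0 to 1 for Bafetinib, and stimulus differences from 498 to 508 for Bafetinib and 0 to 0 for TG100572. The DMSO responses ranged from 24327 to 27361 and 10197 to 11862. Same-numbered DMSO libraries did not deviate together (correlations of -0.0357 to 0.049 after LPS and -0.0432 to 0.0827 after IL-4). The fit with the replicate block gave 27066 and 11611 called DMSO responses, against 27127 and 11611 without it. For 140 single CREs, 1538 alternative values held 1372 of the same call, 151 that lost it, 15 that gained it and 0 of the opposite direction. The causes were not tested.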
